A study of Mus musculus with 12 samples.

Results

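Chromatin accessibility around Myc was examined in 2 kinds of splenic B cell, marginal zone (MZB) and follicular (FoB), from mice labelled knockout or wild-type for LSD1, a histone demethylase encoded by Kdm1a. The Myc regions were all ATAC-seq regions whose overlapping or nearest protein-coding gene on mm10 was Myc, 103 of the 94161 regions in the table. That number ranked 7 among 16249 genes with a region, whose median was 3 regions. Of the 103, 4 overlapped the gene (chr15:61985341-61990361), 37 lay on its 5′ side as far as 531.4 kb away, and 62 lay on its 3′ side as far as 855.2 kb away. The neighbouring protein-coding genes are A1bg, 1064071 bp away on the 5′ side, and Gsdmc, 1785610 bp away on the 3′ side. Nearness alone assigned a region to Myc, and whether any region acts on Myc was not tested.

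MYC is a transcription factor that drives cell growth, ribosome production and entry into the cell cycle, and B cells raise it when they are activated. It binds DNA as a dimer with MAX, and the MXD and MNT proteins compete with it for MAX. The gene stands in a wide stretch without other protein-coding genes, and its known enhancers in mouse blood cells include a distant cluster on the 3′ side. The Myc regions end 855.2 kb out on that side, and regions nearer to Gsdmc were left out, so enhancers farther out are not among them. The long noncoding RNA gene Pvt1 is the 3′ neighbour of Myc and, in human cells, holds enhancers that can contact the promoters of MYC and PVT1. In this annotation Pvt1 spans 222230 bp (chr15:62037986-62260215) and begins 47625 bp past the end of Myc.

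The 4 groups were knockout MZB, wild-type MZB, knockout FoB and wild-type FoB, each with 3 libraries made from 10000 sorted cells. All came from spleens of female C57BL/6J mice without stimulation. The MZB gate took cells high for CD21, positive for CD1d and without CD23, and the FoB gate took CD23-positive cells with intermediate CD21 and no CD1d. Both gates required B220 and left out cells bearing CD93, GL7, Thy1.1, CD11b or F4/80. The sources used here do not give the cells in which LSD1 was deleted, the part of the gene removed or the ages of the mice. Whether libraries of one group came from separate mice is not stated in the labels, and p-values then measure only the spread between libraries. The 1 region at Kdm1a (chr4:136601890-136603082) had log2 fold changes of 0.13 in knockout over wild-type MZB (limma adjusted p = 0.773) and -0.14 in FoB (limma adjusted p = 0.866), which checks nothing, since the deleted part is unknown.

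The sort was checked at marker genes, where over all tested regions 24.2% were higher and 11.4% lower in wild-type MZB than in wild-type FoB. Of 98 regions at 6 MZB marker genes, 49 were higher (50%) and 8 lower (8.16%). Of 50 regions at 5 FoB marker genes, 1 was higher (2%) and 22 were lower (44%). Of the genes for the sorted proteins, Fcer2a (CD23) had 0 of 5 regions higher and 4 lower, and Cd1d1 had 7 of 15 higher and 1 lower. Cr2, which encodes the CD21 that MZB were sorted high for, went the other way, with 0 of 20 regions higher and 5 lower. Recovered reads per library ran between 3169966 and 10375328, so that 3 reads correspond to 0.289 to 0.946 rppm, the deposited unit of reads in a peak for every 1000000 reads over all listed regions of a library. Accessibility was measured over bulk cells, so more cells with a region open and a region more open in each cell cannot be told apart.

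Most Myc regions were weak and a few carried much of the signal. Their mean level over the 12 libraries had a median of 2.60 rppm, against 3.87 rppm for all regions of the table. Levels ran between 0.241 and 113 rppm, with 3 regions at 50 rppm or more, 24 at 10 rppm or more and 53 under 3 rppm. A total of 90 Myc regions reached 1 rppm in 3 libraries and were tested, and the 13 others were not. The widths ran between 124 and 1688 bp, with a median of 280 bp.

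The strongest region lay in the body of Pvt1, 178.8 kb 3′ of Myc (chr15:62169149-62170191). It was also first among the Myc regions per kilobase of width, at 109 rppm per kb. The next was 191.0 kb 3′ of Myc, also in Pvt1 (chr15:62181356-62181997). The third and only 5′ region among the 5 strongest lay 443.9 kb away (chr15:61540599-61541415). The fourth covered the annotated start of Pvt1, 47.3 kb 3′ of Myc (chr15:62037703-62039391), and the fifth lay just past Pvt1, 275.0 kb away (chr15:62265398-62266061). Together these 5 held 31.6% ± 0.639 of the summed Myc signal in knockout MZB and 32.6% ± 1.83 in wild-type MZB, against 37.6% ± 0.676 in knockout FoB and 38.0% ± 0.471 in wild-type FoB (SD, n = 3 each). The plot of levels along the locus shows these regions among the tallest, with both Pvt1 regions and the one 443.9 kb 5′ highest in every group. The next region by mean level, 438.2 kb 5′ of Myc (chr15:61546540-61547115), averaged 43.7 ± 4.92 rppm in knockout MZB, above the fourth and the fifth of the 5 there.

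**Figure D1:**
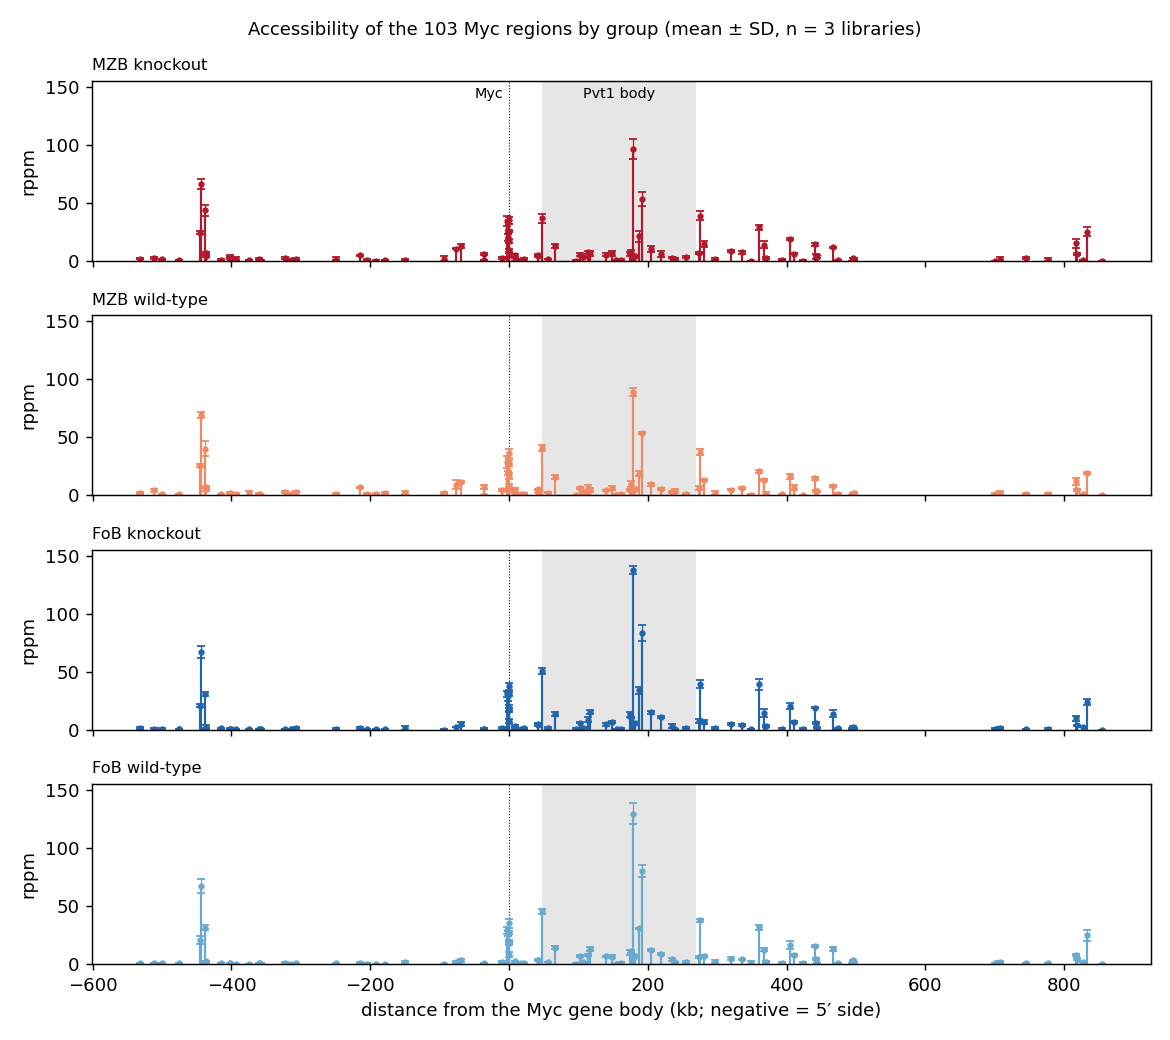
Mean accessibility of the 103 Myc regions (vertical axes, rppm; bars, SD of 3 libraries) against distance from the Myc gene body (horizontal axis, kb, negative on the 5′ side) in knockout MZB, wild-type MZB, knockout FoB and wild-type FoB. The tallest region, 178.8 kb 3′ of Myc in the shaded Pvt1 body, averaged 96.8 and 89.1 rppm in knockout and wild-type MZB and 138 and 130 rppm in knockout and wild-type FoB.

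The comparison of the cell types asks where the Myc locus is open in MZB rather than FoB. Of the regions that passed the test, those 5′ of Myc were higher in MZB with 1 exception in each genotype, and those in the Pvt1 body were lower. In knockout cells 18 of 90 Myc regions were higher in MZB than in FoB (20%, against 23.2% of all tested regions) and 12 were lower (13.3%, against 9.47%). In wild-type cells 21 were higher (23.3%, against 24.2%) and 14 were lower (15.6%, against 11.4%). These totals were near the shares over all 89782 tested regions, and the difference between the sides of the locus was not tested. The calls are from limma on log2(rppm + 0.5) at a Benjamini-Hochberg adjusted p under 0.05 over all tested regions.

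By stretch, 13 of the 31 tested regions on the 5′ side were higher in knockout MZB than in knockout FoB and 1 was lower, with a median log2 fold change of 0.64. In the Pvt1 body 0 of 21 were higher and 8 were lower, with a median of -0.18. The 4 regions within Myc gave 0 higher and 1 lower, the 6 between Myc and Pvt1 gave 0 in either direction, and the 28 beyond Pvt1 gave 5 higher and 2 lower. In wild-type cells 18 were higher and 1 lower on the 5′ side (median 1.05), and 0 and 7 in Pvt1 (median -0.32). The wild-type counts were 0 and 1 within Myc, 0 and 0 between Myc and Pvt1, and 3 and 5 beyond Pvt1. The stretches follow the annotation, but the split was chosen after the values were seen and was not tested against other splits.

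Low regions enter the 5′ count, and a weak region can pass the filter through the cell type in which it is high. Of the 31 tested 5′ regions, 19 averaged under 3 rppm over the 12 libraries. Of the 13 regions called higher there in knockout cells, 6 were among these 19, and of the 18 in wild-type cells, 11 were. Of the 12 tested 5′ regions with a mean of 3 rppm or more over all 12 libraries, 7 were higher and 1 was lower in MZB in each genotype. Of 16 such regions in Pvt1, 0 were higher and 8 lower in knockout MZB, and 0 and 7 in wild-type MZB. A mean over all libraries can also be reached through the high cell type, so these counts do not remove that limit. The region 35.4 kb 5′ of Myc averaged 3.82 rppm over all libraries, but 1.06 rppm in knockout FoB and 1.03 rppm in wild-type FoB. Scaling moved the balance of the whole locus too. TMM factors lowered the median log2 difference of wild-type MZB over wild-type FoB across all regions to 0.04, against 0.18 as deposited. Then 15 Myc regions were higher and 17 lower in knockout MZB (35.6% called, against 34.9% of all tested regions), and 15 and 18 in wild-type MZB (36.7%, against 37.4%). Under quantile normalisation the counts were 10 and 17 in knockout MZB (30% called, against 25.7%) and 13 and 21 in wild-type MZB (37.8%, against 30.4%). The directions in both stretches were kept with TMM, with 12 higher and 2 lower on the 5′ side and 0 and 10 in Pvt1 in knockout cells, and 13 and 1 and 0 and 10 in wild-type cells.

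**Figure D2:**
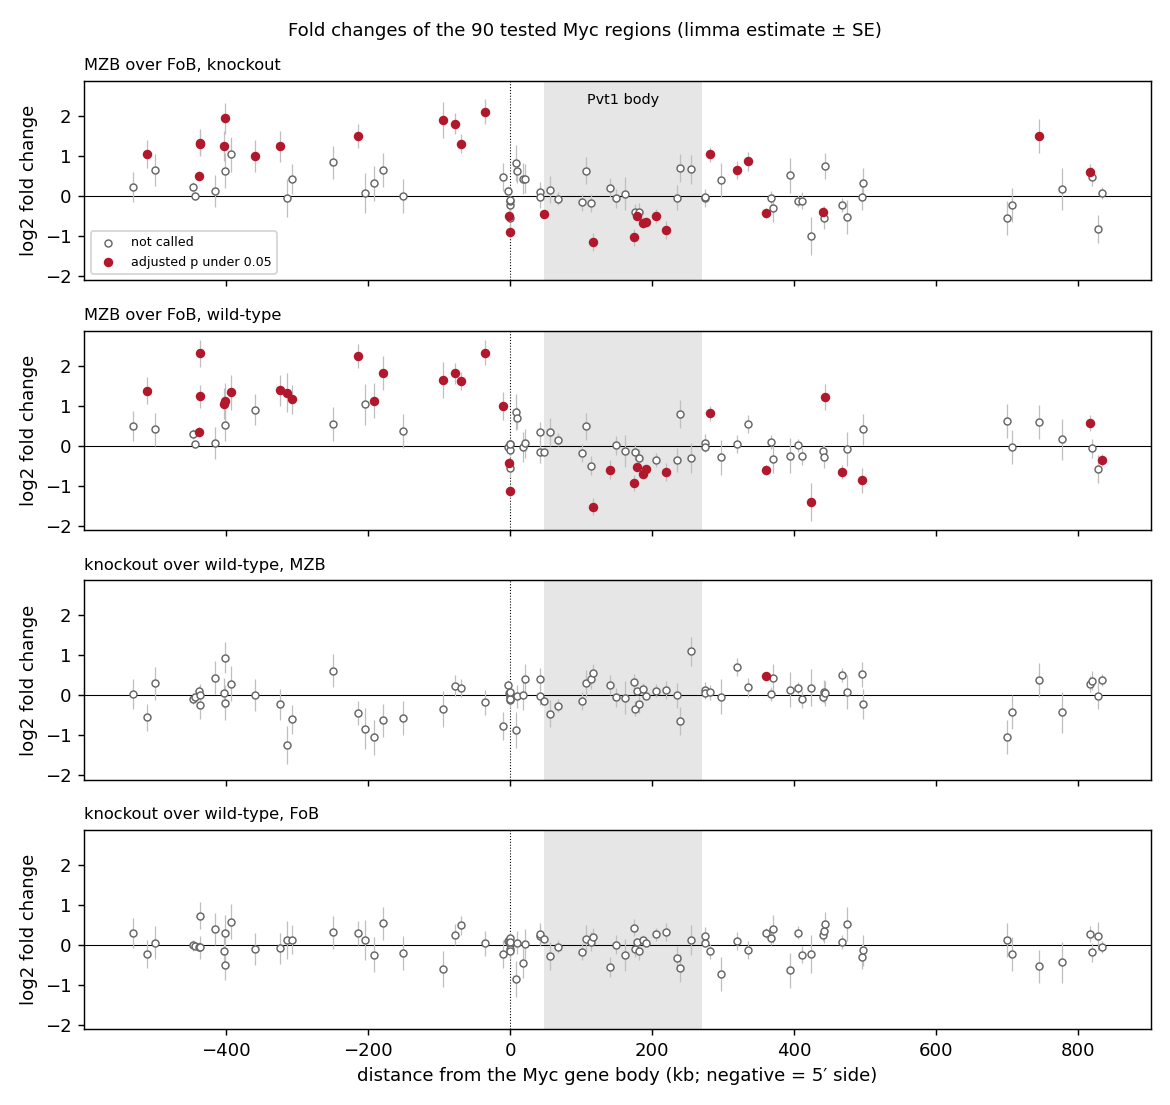
Log2 fold changes (vertical axes, limma estimate ± SE) of the 90 tested Myc regions against distance from Myc (kb, negative on the 5′ side), for MZB over FoB in knockout and in wild-type cells and for knockout over wild-type in MZB and in FoB; filled points have an adjusted p under 0.05. Filled points on the 5′ side lie above 0 but for 1 in each MZB over FoB panel, and those in the shaded Pvt1 body lie below 0, and 1 filled point appears in the knockout panels.

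Among the 5′ regions, the largest estimates belonged to regions that were nearly closed in FoB. The region 35.4 kb 5′ of Myc (chr15:61949495-61949926) had 5.83, 5.68 and 6.80 rppm in the knockout MZB libraries and 8.64, 7.71 and 4.98 rppm in the wild-type MZB libraries. In knockout FoB it had 0.828, 0.824 and 1.53 rppm, and in wild-type FoB 0.821, 1.54 and 0.716 rppm. All 6 MZB libraries were above all 6 FoB libraries, on 16 to 32 reads each in MZB and 3 to 16 in FoB. The log2 fold change of MZB over FoB was 2.11 ± 0.31 (SE) in knockout cells (limma adjusted p = 1.63e-06) and 2.32 ± 0.31 in wild-type cells (limma adjusted p = 2.47e-07).

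The region 214.1 kb 5′ of Myc (chr15:61770800-61771198) lies within D030024E09Rik, a long noncoding RNA gene. The level was 4.67, 5.36 and 5.32 rppm in knockout MZB libraries and 7.56, 6.91 and 6.84 rppm in wild-type MZB. The FoB libraries had 1.86, 0.824 and 2.03 rppm in knockout cells and 1.37, 1.35 and 0.716 rppm in wild-type cells. MZB stood above FoB in both genotypes, with log2 fold changes of 1.49 ± 0.30 in knockout cells (limma adjusted p = 0.000193) and 2.23 ± 0.30 in wild-type cells (limma adjusted p = 2.98e-07). The knockout MZB libraries were all below the wild-type MZB libraries, but the knockout difference of -0.44 did not pass (limma adjusted p = 0.563).

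A pair of neighbouring regions 69.3 and 77.1 kb 5′ of Myc was stronger. The nearer one (chr15:61915524-61916024) had 14.9, 11.7 and 12.4 rppm in the knockout MZB libraries and 12.4, 10.6 and 10.9 rppm in wild-type MZB, against 6.21, 5.36 and 3.56 rppm in knockout FoB and 3.83, 4.53 and 2.15 rppm in wild-type FoB. The farther one (chr15:61907721-61908260) had 10.3, 11.0 and 10.6 rppm in the knockout MZB libraries and 7.83, 13.8 and 6.53 rppm in wild-type MZB, against 2.69, 2.88 and 2.54 rppm in knockout FoB and 1.37, 3.08 and 2.39 rppm in wild-type FoB. No MZB library overlapped any FoB library at either region, and wild-type MZB spread widely at the farther one. The log2 fold changes of MZB over FoB were 1.31 ± 0.23 in knockout and 1.61 ± 0.23 in wild-type cells at the nearer region, and 1.80 ± 0.26 in knockout and 1.81 ± 0.26 in wild-type cells at the farther one (limma adjusted p between 6.32e-07 and 2.21e-05).

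Farther out on the 5′ side, the strongest 5′ region, 443.9 kb away, had 71.1, 62.5 and 66.5 rppm in the knockout MZB libraries and 66.9, 68.3 and 71.8 rppm in wild-type MZB, against 69.3, 70.9 and 60.7 rppm in knockout FoB and 60.8, 71.1 and 70.9 rppm in wild-type FoB. All 4 groups overlapped, and the difference of MZB over FoB was 0.03 in wild-type cells, with a 95% interval between -0.15 and 0.22 (limma adjusted p = 0.816). The region 438.2 kb away averaged 43.7 ± 4.92 rppm in knockout MZB and 40.4 ± 6.23 rppm in wild-type MZB, against 30.6 ± 1.85 rppm in knockout FoB and 31.6 ± 2.48 rppm in wild-type FoB. It was higher in MZB in knockout cells (0.50 ± 0.12, limma adjusted p = 0.000896) and in wild-type cells (0.34 ± 0.12, limma adjusted p = 0.0206), though the wild-type call was not made by edgeR (adjusted p = 0.242). A weak neighbour 436.3 kb away (chr15:61548898-61549081) averaged 4.50 ± 1.03 rppm in knockout MZB and 5.46 ± 1.30 rppm in wild-type MZB, against 1.50 ± 0.502 rppm in knockout FoB and 0.731 ± 0.396 rppm in wild-type FoB (SD, n = 3 each). It was higher in MZB by log2 fold changes of 1.33 ± 0.33 in knockout cells (limma adjusted p = 0.00206) and 2.31 ± 0.33 in wild-type cells (limma adjusted p = 9.82e-07).

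The region 401.7 kb 5′ of Myc (chr15:61583308-61583605) was called in knockout cells and not in wild-type cells. It averaged 3.64 ± 1.21 rppm in knockout MZB and 1.59 ± 0.0326 rppm in wild-type MZB, against 0.630 ± 0.564 rppm in knockout FoB and 0.973 ± 0.115 rppm in wild-type FoB. The log2 fold change of MZB over FoB was 1.94 ± 0.38 in knockout cells (limma adjusted p = 0.000131) and 0.51 ± 0.38 in wild-type cells (limma adjusted p = 0.323). The test of the difference between those estimates gave 1.43 ± 0.54 and did not pass (limma adjusted p = 0.744).

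Close to Myc the pattern changed within a short distance. The region 32 bp 5′ of the gene (chr15:61984795-61985309) had 25.4, 25.6 and 27.2 rppm in the knockout MZB libraries and 31.0, 27.1 and 26.4 rppm in wild-type MZB, against 31.5, 32.5 and 28.5 rppm in knockout FoB and 25.7, 28.6 and 27.2 rppm in wild-type FoB. Knockout FoB stood above knockout MZB, while the wild-type groups overlapped. The log2 fold change of MZB over FoB was -0.24 in knockout cells, which missed the threshold with limma (adjusted p = 0.117) and passed with edgeR (adjusted p = 0.00435), and 0.05 ± 0.12 in wild-type cells (limma adjusted p = 0.782). The single 5′ region lower in MZB in both genotypes lay 1.7 kb from Myc (chr15:61983371-61983650) and is named because it was the exception. It averaged 20.4 ± 3.17 rppm in knockout MZB and 19.2 ± 1.56 rppm in wild-type MZB, against 28.8 ± 3.86 rppm in knockout FoB and 26.3 ± 2.06 rppm in wild-type FoB, with log2 fold changes of -0.49 ± 0.13 in knockout cells (limma adjusted p = 0.00413) and -0.44 ± 0.13 in wild-type cells (limma adjusted p = 0.00919).

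Of the 4 regions overlapping Myc, the last along the gene differed between the cell types. It lies at chr15:61987801-61988232 and had 10.5, 7.89 and 8.87 rppm in the knockout MZB libraries and 9.18, 9.30 and 7.15 rppm in wild-type MZB. Knockout FoB had 17.6, 15.5 and 18.8 rppm and wild-type FoB 18.1, 19.4 and 20.5 rppm. Every MZB library was below every FoB library. The level was 1.86-fold lower in knockout MZB than in knockout FoB (log2 fold change -0.90 ± 0.16, limma adjusted p = 3.9e-05) and 2.20-fold lower in wild-type MZB than in wild-type FoB (-1.14 ± 0.16, limma adjusted p = 6.94e-07).

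The other regions within Myc gave less separation. The region just inside the annotated start (chr15:61985416-61985762) had 19.4, 15.8 and 16.6 rppm in the knockout MZB libraries and 18.4, 18.3 and 14.0 rppm in wild-type MZB, against 20.1, 15.9 and 20.6 rppm in knockout FoB and 16.4, 18.6 and 19.8 rppm in wild-type FoB, and all groups overlapped. The strongest one (chr15:61986785-61987361) averaged 35.0 ± 3.08 rppm in knockout MZB and 36.3 ± 3.75 rppm in wild-type MZB, against 37.5 ± 2.77 rppm in knockout FoB and 35.4 ± 3.81 rppm in wild-type FoB, a difference of 0.04 in wild-type cells (limma adjusted p = 0.837). The region between it and the last (chr15:61987461-61987745) averaged 5.31 ± 1.81 rppm in knockout MZB and 5.55 ± 1.16 rppm in wild-type MZB, against 7.82 ± 1.68 rppm in knockout FoB and 8.37 ± 1.93 rppm in wild-type FoB. Its log2 fold change of -0.55 ± 0.24 in wild-type cells missed the threshold with limma (adjusted p = 0.0685) and passed with edgeR (adjusted p = 0.00226) and DESeq2 (adjusted p = 0.0435).

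Between Myc and Pvt1 none of the 6 regions was called in any comparison of the main fit. In wild-type cells 1 was called higher in MZB with a pseudocount of 2 rppm, and 1 with a filter of 3 rppm. The nearest 3′ region, 8.4 kb away (chr15:61998761-61998943), averaged 1.28 ± 1.03 rppm in knockout MZB and 2.41 ± 0.729 rppm in wild-type MZB, against 0.482 ± 0.521 rppm in knockout FoB and 1.17 ± 0.654 rppm in wild-type FoB. Such levels are a few reads per library.

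In the Pvt1 body every region called in either genotype in the main fit was lower in MZB, among them both of the strongest Myc regions. With a pseudocount of 2 rppm, 1 region there was called higher in wild-type MZB and 7 lower. The strongest, 178.8 kb 3′ of Myc, had 87.7, 98.1 and 105 rppm in the knockout MZB libraries and 88.3, 86.4 and 92.7 rppm in wild-type MZB. It had 141, 135 and 137 rppm in knockout FoB and 123, 140.1 and 127 rppm in wild-type FoB. All MZB libraries were below all FoB libraries, by log2 fold changes of -0.51 ± 0.08 in knockout cells (limma adjusted p = 2.89e-06) and -0.54 ± 0.08 in wild-type cells (limma adjusted p = 9.82e-07). Under quantile normalisation the knockout value was -0.19 and missed the threshold (limma adjusted p = 0.0833).

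Its neighbour 191.0 kb 3′ of Myc had 46.4, 57.1 and 56.2 rppm in the knockout MZB libraries and 53.2, 54.2 and 53.8 rppm in wild-type MZB, against 76.0, 88.4 and 86.7 rppm in knockout FoB and 79.7, 86.2 and 75.9 rppm in wild-type FoB. The cell types did not overlap, with log2 fold changes of -0.65 ± 0.09 in knockout cells (limma adjusted p = 8.72e-07) and -0.58 ± 0.09 in wild-type cells (limma adjusted p = 5.77e-06). A region between them, 187.3 kb 3′ of Myc (chr15:62177699-62178212), averaged 21.5 ± 4.82 rppm in knockout MZB and 18.9 ± 2.09 rppm in wild-type MZB, against 34.0 ± 2.87 rppm in knockout FoB and 31.1 ± 0.479 rppm in wild-type FoB. It was 1.59-fold lower in knockout MZB than in knockout FoB (limma adjusted p = 0.000167) and 1.64-fold lower in wild-type MZB than in wild-type FoB (limma adjusted p = 6.81e-05).

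The largest fold change in Pvt1 belonged to a weaker region 116.1 kb 3′ of Myc (chr15:62106500-62106970). It had 7.23, 8.52 and 4.43 rppm in the knockout MZB libraries and 5.13, 2.66 and 5.60 rppm in wild-type MZB, against 15.1, 17.1 and 13.5 rppm in knockout FoB and 11.5, 15.4 and 12.9 rppm in wild-type FoB. The cell types were apart in every library, 2.23-fold in knockout cells (log2 fold change -1.16 ± 0.22, limma adjusted p = 9.83e-05) and 2.87-fold in wild-type cells (-1.52 ± 0.22, limma adjusted p = 1.32e-06). At the annotated start of Pvt1 the levels averaged 37.0 ± 3.89 rppm in knockout MZB and 41.0 ± 2.54 rppm in wild-type MZB, against 50.7 ± 2.20 rppm in knockout FoB and 45.5 ± 2.37 rppm in wild-type FoB. That region was lower in MZB in knockout cells (-0.45 ± 0.10, limma adjusted p = 0.000692), and in wild-type cells its -0.15 missed the threshold with limma (adjusted p = 0.266) and passed with edgeR (adjusted p = 0.00764) and DESeq2 (adjusted p = 0.0456).

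**Figure D3:**
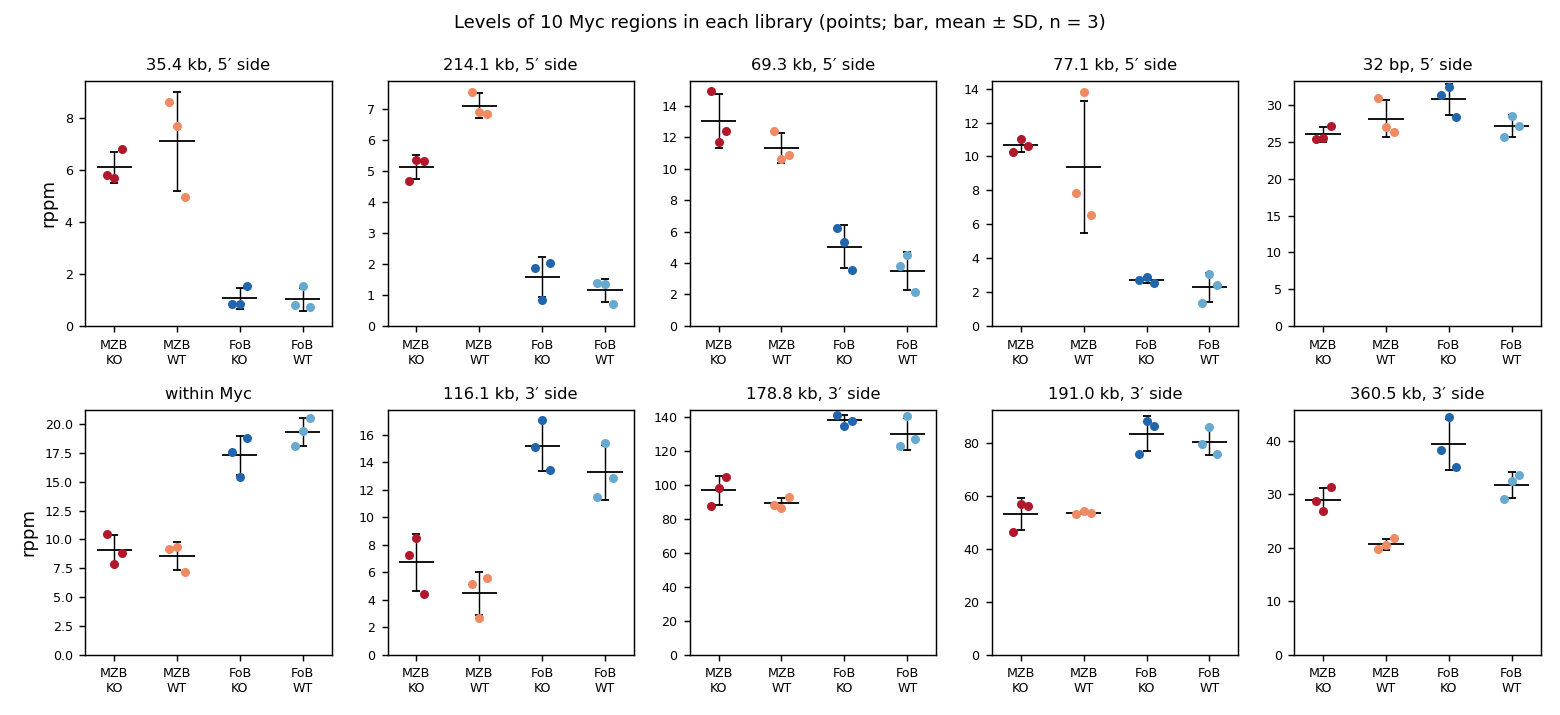
Accessibility (vertical axes, rppm) of 10 Myc regions in each library, one panel a region titled by its distance from Myc; points are libraries and bars the mean ± SD of 3. In the 5′ panels from 35.4 to 214.1 kb the MZB libraries lie above the FoB libraries, while in the panels within Myc and at 116.1, 178.8 and 191.0 kb 3′ they lie below, and at 360.5 kb 3′ knockout lies above wild-type in each cell type.

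Beyond Pvt1 the calls went both ways. The region 281.0 kb 3′ of Myc (chr15:62271351-62271857) averaged 14.4 ± 2.58 rppm in knockout MZB and 13.4 ± 0.760 rppm in wild-type MZB, against 6.79 ± 1.70 rppm in knockout FoB and 7.47 ± 0.855 rppm in wild-type FoB. It was 2.06-fold higher in knockout MZB than in knockout FoB (limma adjusted p = 3.66e-05) and 1.75-fold higher in wild-type MZB than in wild-type FoB (limma adjusted p = 0.000773). A far stronger region only 275.0 kb away averaged 39.0 ± 3.92 rppm in knockout MZB and 37.3 ± 2.72 rppm in wild-type MZB, against 39.5 ± 3.25 rppm in knockout FoB and 37.9 ± 1.41 rppm in wild-type FoB, a wild-type difference of -0.02 (limma adjusted p = 0.896). The farthest region on the 3′ side, 855.2 kb away (chr15:62845590-62845714), averaged 0.241 rppm over the 12 libraries and was not tested. The farthest on the 5′ side, 531.4 kb away (chr15:61453720-61453938), averaged 2.05 rppm in knockout MZB and 2.13 rppm in wild-type MZB, against 1.78 rppm in knockout FoB and 1.26 rppm in wild-type FoB, and was not called (limma adjusted p = 0.325 in wild-type cells).

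The 31 tested 5′ regions summed to 296 ± 13.1 rppm in knockout MZB and 299 ± 11.7 rppm in wild-type MZB, against 240.3 ± 6.18 rppm in knockout FoB and 229.9 ± 13.7 rppm in wild-type FoB (SD, n = 3 each). The 21 in Pvt1 summed to 303 ± 16.4 rppm in knockout MZB and 296 ± 1.85 rppm in wild-type MZB, against 428 ± 2.77 rppm in knockout FoB and 405 ± 19.2 rppm in wild-type FoB. At both stretches the 6 MZB libraries stood apart from the 6 FoB libraries, in opposite directions.

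As shares of the summed Myc signal, which no library-wide factor can change, the 5′ side held 31.9% ± 0.201 in knockout MZB and 33.6% ± 0.749 in wild-type MZB, against 23.9% ± 0.154 in knockout FoB and 24.2% ± 0.636 in wild-type FoB. The Pvt1 body held 32.7% ± 0.238 in knockout MZB and 33.3% ± 0.597 in wild-type MZB, against 42.6% ± 0.556 in knockout FoB and 42.5% ± 0.969 in wild-type FoB. The 5′ side and the Pvt1 body thus held similar shares in MZB, whereas in FoB the Pvt1 body held the larger share. The sum over all 90 tested regions was 927 ± 43.8 rppm in knockout MZB and 889.8 ± 19.8 rppm in wild-type MZB, against 1006 ± 19.6 rppm in knockout FoB and 952 ± 45.9 rppm in wild-type FoB.

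**Figure D4:**
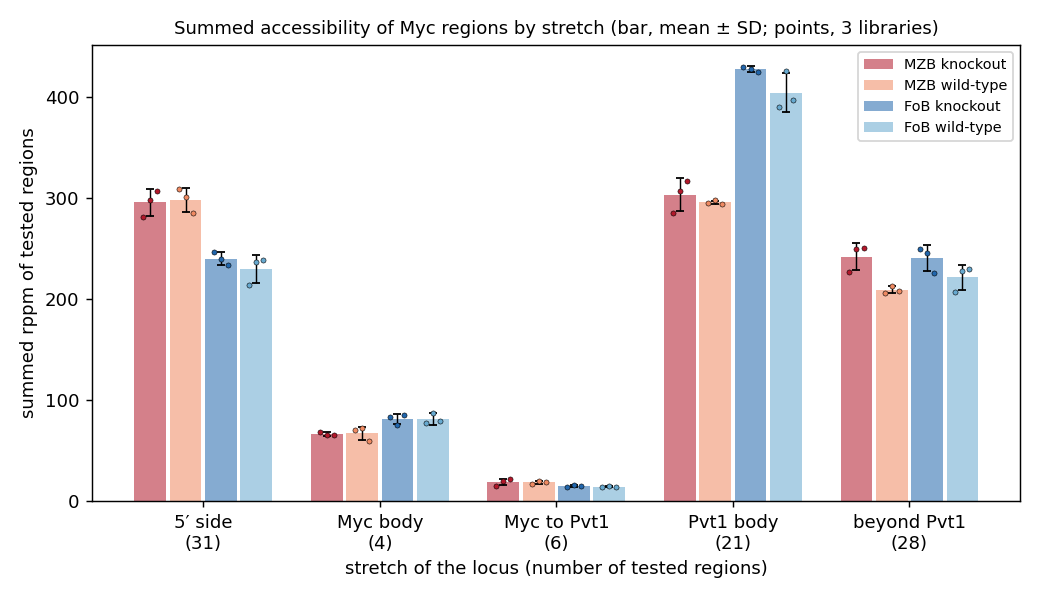
Summed accessibility (vertical axis, rppm) of the tested Myc regions in 5 stretches of the locus (horizontal axis, number of regions in brackets) for knockout MZB, wild-type MZB, knockout FoB and wild-type FoB; bars are means, whiskers the SD and points the 3 libraries. On the 5′ side the MZB bars, at 296 and 299 rppm, exceed the FoB bars at 240.3 and 229.9 rppm, and in the Pvt1 body the FoB bars, at 428 and 405 rppm, exceed the MZB bars at 303 and 296 rppm.

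The calls in both genotypes can be set side by side, since the knockout and wild-type comparisons share no libraries, only the estimate of the spread. Of the 18 regions higher in knockout MZB and the 21 higher in wild-type MZB, 13 were called in both, which is 72.2% of the knockout list and 61.9% of the wild-type list. Of 12 lower regions in knockout cells and 14 in wild-type cells, 9 were shared, or 75% of the knockout list and 64.3% of the wild-type list. No Myc region was called in opposite directions. Over all tested regions the shared part was 75.8% of the knockout and 72.6% of the wild-type list of higher regions, and 72.4% of the knockout and 60% of the wild-type list of lower regions.

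The effect of LSD1 knockout within each cell type is the study's other comparison. Few Myc regions were called for it, as over the whole table. In MZB 1 of 90 Myc regions was higher in knockout cells (1.11%, against 0.502% of all tested regions) and 0 were lower (against 0.275%), where 0.777% of all tested regions were called in either direction. In FoB 0 of 90 were higher (against 0.32%) and 0 were lower (against 0.219%), where 0.539% of all tested regions were called, and the smallest limma adjusted p was 0.371. The median log2 fold change of knockout over wild-type was 0.03 in MZB, where all regions gave -0.02, and 0.06 in FoB, where all regions gave -0.02. At this depth the 95% interval lay within 1 log2 unit either way for 58 of the 90 regions in MZB and 63 in FoB, so changes of more than that were not excluded at the others.

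The one region called lay 360.5 kb 3′ of Myc, beyond Pvt1 (chr15:62350884-62351803), and ranked 9 by level among the Myc regions. It had 28.7, 26.8 and 31.3 rppm in knockout MZB, against 19.7, 20.5 and 21.8 rppm in wild-type MZB. In FoB it had 38.3, 44.5 and 35.1 rppm in knockout cells, against 29.0, 32.4 and 33.7 rppm in wild-type cells. Knockout libraries were above wild-type libraries in both cell types, and it was the 1 Myc region of which that was true in both. In MZB the level was 1.39-fold higher in knockout cells (log2 fold change 0.48 ± 0.12, 95% interval 0.24 to 0.71, limma adjusted p = 0.0404).

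That call was close to the threshold. It was lost with edgeR (adjusted p = 0.0519), with DESeq2 (adjusted p = 0.288), with a pseudocount of 0.1 rppm (limma adjusted p = 0.0564) and when only the compared groups were fitted (limma adjusted p = 0.0551). It was also lost when any 1 of the 6 MZB libraries was left out (limma adjusted p between 0.0607 and 0.167) and without wild-type FoB library 2 (limma adjusted p = 0.0519). In FoB the log2 fold change was 0.30 ± 0.12, with a 95% interval between 0.06 and 0.54, and did not pass (limma adjusted p = 0.371). The difference between the knockout effects was 0.17 ± 0.17 (limma adjusted p = 0.91). The same region was lower in MZB than in FoB, by -0.43 in knockout cells (limma adjusted p = 0.00445) and -0.60 ± 0.12 in wild-type cells (limma adjusted p = 0.000101).

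The called region is 1 of the 28 tested regions beyond Pvt1. These 28 summed to 227, 249.5 and 250.3 rppm in the knockout MZB libraries, against 206, 213 and 208 rppm in wild-type MZB. The knockout libraries were all above the wild-type ones, and 20 of the 28 regions had a log2 fold change above 0 in MZB, against 46.8% of all tested regions, with 1 of the 28 called. In FoB the sums overlapped, at 250.2, 246 and 226 rppm in knockout cells, against 207, 228 and 229.9 rppm in wild-type cells. There 15 of the 28 regions had a log2 fold change above 0, against 46.7% of all tested regions. As a share of the Myc signal this stretch held 26.1% ± 0.352 in knockout MZB and 23.5% ± 0.512 in wild-type MZB, against 23.9% ± 0.860 in knockout FoB and 23.3% ± 0.605 in wild-type FoB. No test was made of these sums and shares. All include the called region, and none was taken without it.

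Summed accessibility at several lists of genes marking other cells was also higher in knockout MZB. No share of other gene lists with such a difference was taken. Among single regions, 17.7% of all tested regions did not overlap between the MZB genotypes. At 3 of 4 immature B cell markers with a region it was 128 to 147 rppm in knockout MZB, against 98.2 to 109 rppm in wild-type MZB, with 1 of 16 regions called higher. The FoB marker list also ran higher, 510.1 to 535 rppm in knockout MZB, against 496 to 504 rppm in wild-type MZB, with 0 of 50 regions called. So did lists for myeloid cells (257 to 281 rppm in knockout MZB, against 232 to 242 rppm in wild-type MZB), NK cells (304 to 334 rppm, against 284 to 292 rppm), dendritic cells (289 to 309.8 rppm, against 264 to 286 rppm), activated or germinal centre B cells (773 to 809 rppm, against 731 to 753 rppm) and plasma cells (695 to 724 rppm, against 658 to 693 rppm). Called higher in knockout MZB were 1 of 30 myeloid, 1 of 29 dendritic and 1 of 53 activated or germinal centre regions, and 0 of the NK and plasma regions, against 0.502% of all tested regions. The MZB marker list overlapped, at 1350 to 1383 rppm in knockout MZB and 1377 to 1426 rppm in wild-type MZB. Lists for B-1 cells, T cells (3 of 6 genes with a region), B cells and erythroid cells (1 region in all) overlapped between the MZB genotypes. The MYC network genes listed below also summed higher, to 2280 to 2300 rppm in knockout MZB, against 2200 to 2241 rppm in wild-type MZB. Among them partners and target genes ran higher, and paralogues and turnover factors overlapped. The part of the marker genes in the result 360.5 kb from Myc was not tested.

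Other Myc regions moved less, or with less certainty, in the knockout. Libraries did not overlap at 7 regions higher and 8 lower in knockout MZB (16.7% in all, against 17.7% of all tested regions), and at 11 higher and 3 lower in knockout FoB (15.6%, against 14.7%). An unadjusted limma p under 0.05 was reached by 12 Myc regions in MZB (13.3%, against 13.3% of all tested regions) and 6 in FoB (6.67%, against 9.05%). With edgeR 0 Myc regions were called in either cell type, against 0.81% of all tested regions in MZB and 0.619% in FoB. With DESeq2 0 were called as well, against 0.187% in MZB and 0.167% in FoB. The quartiles of the 90 log2 fold changes were -0.18 and 0.26 in MZB and -0.16 and 0.23 in FoB.

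At the promoter-proximal region 32 bp from Myc the knockout difference was -0.11 in MZB (95% interval -0.34 to 0.13, limma adjusted p = 0.738) and 0.18 in FoB (95% interval -0.06 to 0.41, limma adjusted p = 0.71). At the last region within Myc it was 0.08 in MZB (limma adjusted p = 0.873) and -0.16 in FoB (limma adjusted p = 0.851). Neither region was separable by genotype at this depth. The test of a difference between the MZB and FoB knockout effects called 0 Myc regions (against 0.00111% of all tested regions), with a smallest limma adjusted p of 0.744 and 6 regions at an unadjusted p under 0.05 (against 6.22% of all tested regions). The edgeR and DESeq2 fits also called 0 (against 0.00223% and 0.00111%).

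Other genes of the MYC network were examined in the same fit: 28 genes encoding partners and antagonists, paralogues, factors of MYC protein turnover and known target genes, 27 of which had 164 tested regions. Between knockout and wild-type 0 of the 164 regions were called with limma in either cell type, against 0.777% of all tested regions in MZB and 0.539% in FoB, a share that comes to few regions in a list of this size. In the comparison of knockout MZB with knockout FoB 32 were higher (19.5%, against 23.2% of all tested regions) and 24 lower (14.6%, against 9.47%), and in wild-type cells 35 were higher (21.3%, against 24.2%) and 24 lower (14.6%, against 11.4%). Among partners 14 of 55 regions were higher and 9 lower in wild-type cells, among paralogues 5 and 1 of 12, among turnover factors 8 and 3 of 36, and among target genes 8 and 11 of 61.

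Within the network, Odc1, which encodes the polyamine enzyme ornithine decarboxylase and is a classical MYC target, had the smallest adjusted p among the higher regions. A region 38634 bp from it (chr12:17505680-17506174) averaged 16.3 ± 0.716 rppm in knockout MZB and 16.7 ± 2.65 rppm in wild-type MZB, against 1.73 ± 0.785 rppm in knockout FoB and 1.26 ± 0.254 rppm in wild-type FoB, a log2 fold change of 3.29 ± 0.25 in wild-type cells (limma adjusted p = 9.86e-13). Mxd1, an antagonist that pairs with MAX, had a region at chr6:86654474-86654950 that was higher in wild-type MZB by 1.50 ± 0.14 (limma adjusted p = 1.44e-10), and another within the gene that was lower by -0.50 ± 0.09 (limma adjusted p = 2.2e-05). A region at Max itself (chr12:76961855-76962834) averaged 67.2 ± 3.42 rppm in knockout MZB and 62.0 ± 3.29 rppm in wild-type MZB, against 92.3 ± 2.21 rppm in knockout FoB and 99.9 ± 8.10 rppm in wild-type FoB, lower in wild-type MZB by -0.68 ± 0.08 (limma adjusted p = 4.73e-08). Among the paralogues, a region 269410 bp from Mycn averaged 12.1 ± 3.28 rppm in knockout MZB and 21.0 ± 2.44 rppm in wild-type MZB, against 3.15 ± 0.531 rppm in knockout FoB and 4.07 ± 0.935 rppm in wild-type FoB (2.25 ± 0.21 in wild-type cells, limma adjusted p = 1.64e-10).

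Among the turnover factors, a region 26624 bp from Fbxw7, which encodes the ubiquitin ligase subunit that recognises MYC, averaged 21.8 ± 2.53 rppm in knockout MZB and 22.8 ± 2.24 rppm in wild-type MZB, against 6.83 ± 2.38 rppm in knockout FoB and 6.78 ± 2.10 rppm in wild-type FoB (1.71 ± 0.20 in wild-type cells, limma adjusted p = 1.03e-08). At the target genes Nop56, Eif4e and Ncl, which encode a ribosome assembly factor, a translation initiation factor and nucleolin, regions at the gene were lower in wild-type MZB by -0.60 ± 0.10, -0.47 ± 0.09 and -0.40 ± 0.09 (limma adjusted p between 1.35e-05 and 0.000324).

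The genes whose summed accessibility followed Myc most closely over the 12 libraries were Zfp710 (Pearson r = 0.924), Ccnc (0.923), Cul3 (0.922), Pip4k2a (0.919) and Znrf1 (0.916), among 5731 genes with at least 5 tested regions, whose median r was -0.20. These values are descriptions over 12 libraries in 4 groups that share depth and scaling. At Zfp710 the summed level averaged 158 rppm in knockout MZB and 148 rppm in wild-type MZB, against 189.9 rppm in knockout FoB and 173 rppm in wild-type FoB. The order of these means is that of the Myc sums, but the gene was picked for following those sums.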

How the data were processed

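ATAC-seq, in which the Tn5 transposase cuts open chromatin, was deposited by the authors as one table of RPM values per peak (rppm), in which every column sums to 1000000. The submitters' processing notes name Bowtie 1.1.1, MACS2 and the build mm10. The sources used here give no read filter, Tn5 shift, merging of peaks or coordinate base (0 or 1), and positions are printed as they stand in the table. All values (100%) were whole multiples of a library's step within 0.01, so whole reads were recovered. Reads carry no molecular identifiers, and floors of 3 reads cover counting error only.

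Regions were assigned to the overlapping or nearest of 21896 protein-coding genes in a RefSeq table of GRCm38.p6 (mm10). Its entries carry no strand or exons, so both were left out; Myc and Pvt1 are transcribed toward higher coordinates. The 89782 regions that reached 1 rppm in 3 or more libraries were tested on log2(rppm + 0.5) in R 4.3.3 by limma 3.58.1, using lmFit, contrasts.fit and a trended eBayes, with 1 coefficient for each of 4 groups over 12 libraries, two-sided, with Benjamini-Hochberg adjustment over all tested regions and a threshold of 0.05. The scale understates changes of weak regions. The procedure was tested on simulated data. Recovered reads were refitted with edgeR 4.0.16 (quasi-likelihood, TMM) and DESeq2 1.42.0. Other alternatives changed the pseudocount, filter, scaling, variance shrinkage, libraries fitted and assignment of regions. Replicates differed by more than counting noise, with chi-square values of 1.1 to 1.85 per degree of freedom. Groups came from the labels.

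Regions named in full were those within Myc, the 5 strongest, any called in a knockout comparison, the 5 with the smallest adjusted p in each direction of each cell type comparison, and the nearest and farthest on each side; for the MYC network, at most 3 in each direction of each comparison and list were eligible, and fewer are printed. The members and lists were chosen with earlier results of these data known.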

Additional observations from a re-analysis of the deposited data

How the results depend on the processing

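No Myc region named from a call changed direction, and 633 of 646 alternative values for the 27 named calls kept their side of the threshold. The 13 others were 11 for the knockout call 360.5 kb 3′ of Myc, 1 for the strongest region in knockout cells under quantile normalisation, and 1 for the region 360.5 kb away in knockout MZB over knockout FoB without knockout FoB library 2 (limma adjusted p = 0.0514). The count of Myc regions higher in knockout MZB, 1, became 0 with a pseudocount of 0.1, with the compared groups only, with edgeR and with DESeq2, and ran between 0 and 1 with libraries left out. Over all tested regions the calls in either direction in MZB were 432, 1009, 727 and 168 under those 4 settings, against 698 in the main fit. In knockout FoB and in the difference of effects all alternatives gave 0.

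For MZB over FoB in knockout cells, the 18 higher regions became 10 with quantile normalisation, 9 with DESeq2 and 28 with all 147 regions between A1bg and Gsdmc. In wild-type cells the 21 became 13 with a filter of 3 rppm, 13 with quantile normalisation, 11 with DESeq2 and 33 with those 147. Calls in either direction over the whole table fell too. In knockout cells 29349 became 23113 with quantile normalisation and 21519 with DESeq2. In wild-type cells 32026 became 27811 with the filter of 3 rppm, 27315 with quantile normalisation and 25039 with DESeq2. Leaving out 1 library gave 13 to 18 higher and 10 to 13 lower in knockout cells, and 15 to 22 and 10 to 15 in wild-type cells. Summed levels in knockout MZB, wild-type MZB, knockout FoB and wild-type FoB were 1167, 1142, 1218 and 1164 rppm between the flanking genes, 867, 838, 957 and 904 rppm within 500 kb, and 878, 835, 1069 and 1007 rppm with TMM. With libraries left out they ran 909.6 to 952, 882 to 901, 996 to 1015 and 931 to 976 rppm. Except where fewer regions or samples entered, the cause was not tested.

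The labels number replicates alike in all groups, but same-numbered libraries correlated between -0.09 and 0.13 and not every library went best with its own number, so the numbers were not taken as pairing. With a replicate block, 1 Myc region was called in knockout MZB and 0 in knockout FoB, and MZB over FoB gave 17 higher and 12 lower in knockout cells and 22 and 14 in wild-type cells. Over all tested regions this block gave 746 calls in knockout MZB and 523 in knockout FoB. MZB over FoB then gave 29368 calls in knockout and 32046 in wild-type cells, against 29349 and 32026 in the main fit. Depth limits the weak regions most, with a median 95% interval of 0.58 log2 units either side.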

Other observations

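A run of weak regions on the 5′ side had low values in knockout MZB, but its bounds were set from those values, so it gets no test and none of its regions passed. Of the 10 tested Myc regions between 90 and 330 kb 5′ of the gene, which averaged 0.671 to 3.73 rppm, 9 had a log2 fold change below 0 in knockout over wild-type MZB, with a median of -0.58, where 46.8% of all tested regions had one above 0. They summed to 16.1, 19.9 and 18.3 rppm in knockout MZB, against 26.2, 26.3 and 25.2 rppm in wild-type MZB, and to 8.07, 7.83 and 8.90 rppm in knockout FoB, against 7.39, 7.90 and 7.16 rppm in wild-type FoB. The smallest limma adjusted p was 0.228 in MZB, and 2 had an unadjusted p under 0.05. In FoB 4 of the 10 had a lower mean in knockout cells, with a median of 0.12, and the smallest limma adjusted p for a difference between the knockout effects was 0.803.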
